A study of Homo sapiens with 9 samples.

Results

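Neurosecretory genes encode the cargo and the processing enzymes of dense-core granules. This account follows 9 of the 18430 genes in a table of RNA-seq values from A375 cells, a human melanoma line: the prohormone convertases PCSK1 and PCSK2, the trimming enzyme CPE, the convertase chaperone SCG5, the granins VGF, SCG2 and CHGA, the opioid precursor PDYN, and SYT12 of the synaptotagmin family. The members were chosen by name, because PCSK2, VGF, PDYN and SYT12 had differed strongly between the drugs in these same libraries. For those 4 genes, and for all members in vemurafenib against cisplatin, values and folds are therefore descriptions with no test.

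All 9 libraries came from A375 cells labelled BRAF V600E, a mutation that keeps the BRAF kinase active. In 3 libraries the cells were left untreated. In 3 the cells had spent 3 days in 10 µM vemurafenib, which blocks the mutant BRAF kinase, and in 3 they had spent 1 day in 2 µM cisplatin, a DNA crosslinking drug. Both treated groups were then kept without drug and collected at day 7, so that their values describe cells after withdrawal, and per the series' design text the untreated cells were collected alongside them. A375 is 1 cell line. No label says that replicates came from separate cultures, and the p-values below therefore refer to the spread among these libraries, which may be technical.

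In neuroendocrine cells and neurons, peptide hormones are made as long precursors that are packed with granins into dense-core granules. There the convertases PC1/3 (gene PCSK1) and PC2 (gene PCSK2) cut the precursors at pairs of basic residues, and carboxypeptidase E (CPE) removes the basic residues that are left. PC2 needs the chaperone 7B2, the product of SCG5, to mature. Melanocytes arise from the neural crest, as do chromaffin cells of the adrenal medulla, in which this pathway is used to store and release peptides.

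A cyclic AMP response element (CRE), the palindrome TGACGTCA bound by CREB-family factors, is a known feature of several genes of this pathway, so the promoters of the members were searched for it. Of the 9 members, 7 had entries in the RefSeq promoter table (GRCh38.p14), and 12 entries were searched over the 250 bases before each start site. The CRE was found in the first of 2 PCSK1 entries and in the single entries of VGF and CHGA, and in no entry of PCSK2, PDYN, SCG5 or CPE. Among all 35116 promoter entries of the same length, 1.65% held it. Of the genes without it, CPE and PDYN were highest after cisplatin, as were PCSK1 and VGF with it. SCG5, without it, was highest in control and PCSK2 after vemurafenib. The stretches below are shown because the 3 genes with the motif had levels that ranged in control from 1 count (CHGA) to the highest of the members (VGF), and because the first PCSK2 entry, without it, belongs to the convertase that was highest where PCSK1 was lowest, after vemurafenib. Each reads 5′ to 3′ on the strand of its gene, with the CRE in capitals. PCSK1 lies on the minus strand at chr5:96433281-96433398, VGF on the minus strand at chr7:101165602-101165719, CHGA on the plus strand at chr14:92923085-92923114 and PCSK2 on the plus strand at chr20:17225957-17226074.
PCSK1: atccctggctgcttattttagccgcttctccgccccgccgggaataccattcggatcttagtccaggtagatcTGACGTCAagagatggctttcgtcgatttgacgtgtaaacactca
VGF: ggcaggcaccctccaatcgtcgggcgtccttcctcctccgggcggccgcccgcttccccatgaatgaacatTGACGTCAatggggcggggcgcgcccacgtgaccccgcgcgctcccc
CHGA: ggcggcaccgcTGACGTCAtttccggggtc
PCSK2: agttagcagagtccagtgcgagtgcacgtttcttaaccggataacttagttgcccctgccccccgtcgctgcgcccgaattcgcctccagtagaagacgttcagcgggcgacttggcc
The first base of the CRE lay 77 bases before the start site in PCSK1, 79 in VGF and 54 in CHGA. VGF also held CACGTG, an E-box bound by MITF, 54 bases before its start, a motif present in 6.34% of all entries on either strand. The AP-1 motif TGAGTCA or its reverse complement TGACTCA (4.2% of entries) and the M-box core CATGTG or CACATG (9.42%) were in none of the members' entries. A match is a description of these letters and not a binding site shown in these cells.

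PCSK1 was lowest and PCSK2 highest after vemurafenib. PCSK1 encodes PC1/3, which makes the early cuts in a precursor. Its level, as CPM (normalised counts scaled to a common library size), was 39.8, 49.3 and 44.2 in the 3 control libraries, 4.42, 8.35 and 15.7 after vemurafenib and 436, 471 and 538 after cisplatin. The 3 groups did not overlap, and the vemurafenib libraries were the most spread. Against control, PCSK1 fell after vemurafenib by 2.22 on the log2 scale (SE 0.31, n = 3 per group, edgeR quasi-likelihood adjusted p = 0.000156) and rose after cisplatin by 3.44 (SE 0.31, adjusted p = 4.68e-06), a fold of 10.8. Without vemurafenib replicate 3, the highest library of its group, the fall was -2.81. Between the drugs the level was 50.5-fold lower after vemurafenib. In bulk RNA, fewer cells that express a gene and less RNA of it per cell cannot be told apart, here and in every result that follows.

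PCSK2 encodes PC2, which makes the later cuts that release small peptides. It was near 0 outside the vemurafenib group, with 0.13, 0 and 0 CPM in the control libraries and 0.28, 0.14 and 0.33 after cisplatin. After vemurafenib it stood at 55.9, 50.5 and 43.3 CPM. In summed counts this was 2378 after vemurafenib against 2 in control, a ratio of 1145 with a 95% counting interval of 317 to 9459. The fitted log2 difference from cisplatin was 7.60. With 11 counts after cisplatin and 2 in control, the ratio of these groups was 5.72 (1.25 to 53.1). PCSK2 passed the filter on low counts in every library of the vemurafenib group only.

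The balance between the convertases is best read per transcript length, as TPM (transcript abundance scaled for length and library size). PCSK2 made up 93%, 86.8% and 74.3% of the summed PCSK1 and PCSK2 TPM in the 3 vemurafenib libraries. In control its share was 0.334% or less, and after cisplatin it was 0.0703% or less. The sum itself was 15 to 18.6 TPM in control, 22.4 to 27.4 after vemurafenib and 171 to 221 after cisplatin. Vemurafenib libraries thus held a sum just above that of control, mostly PCSK2, and cisplatin libraries a higher sum that was nearly all PCSK1.

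**Figure D1:**
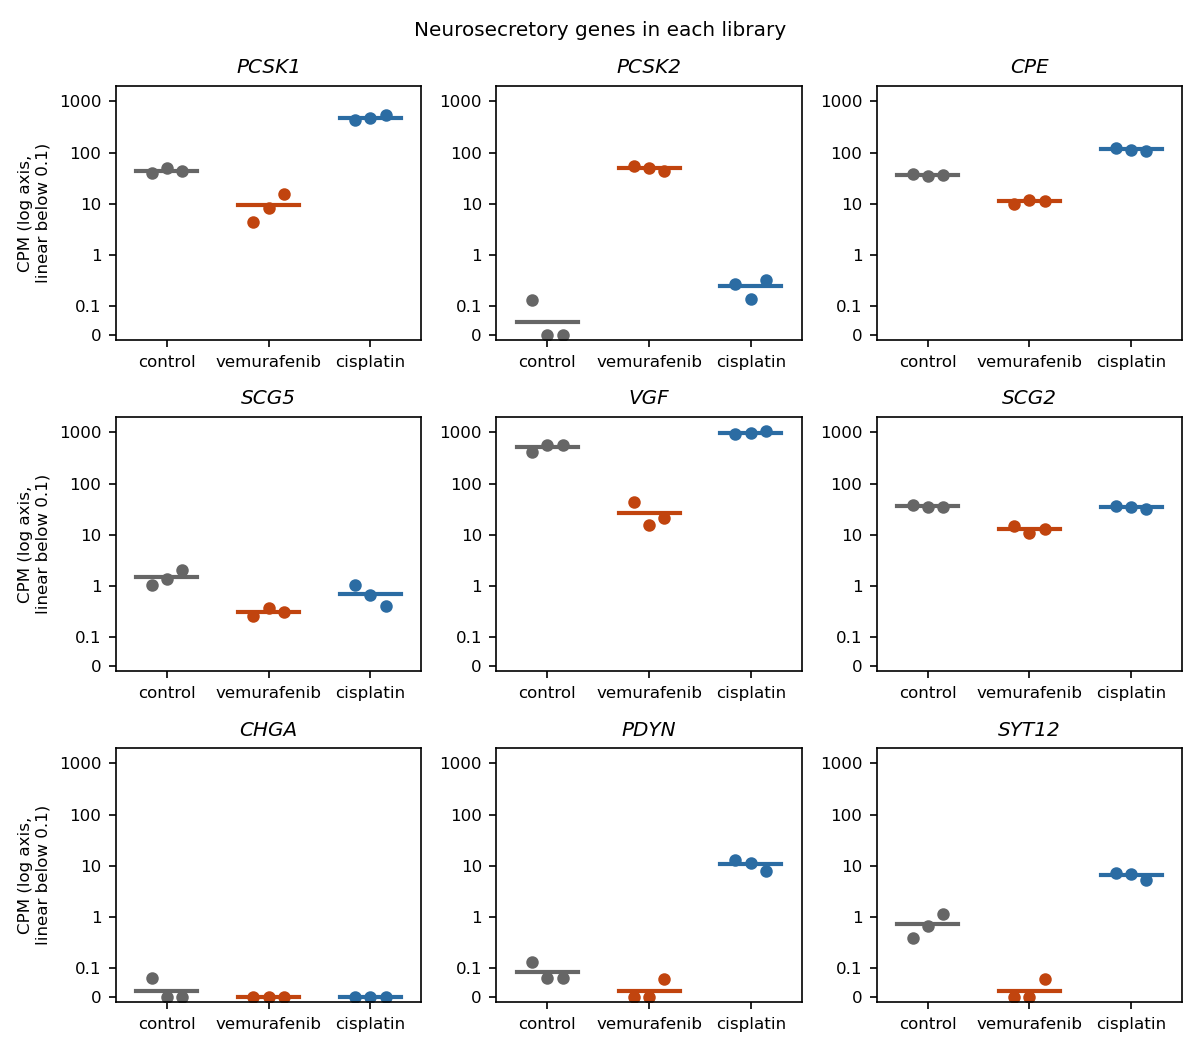
Level of each of the 9 genes in each library, in CPM on a log axis that is linear below 0.1; points are libraries (3 per group) and lines are group means. PCSK2 stands at 43.3 to 55.9 CPM after vemurafenib and below 0.4 elsewhere, while PCSK1, CPE, VGF, PDYN and SYT12 are highest after cisplatin.

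Most of the other proprotein convertases act in many cell types, on growth factors, receptors and matrix proteins. Of the other convertases, 6 were tested in every contrast. After vemurafenib 3 of the 6 rose and 1 fell, where 22.0% of all 13989 tested genes rose and 22.9% fell. PCSK5 rose by 3.88 (SE 0.25, adjusted p = 4.23e-07), from 1.96 ± 0.488 CPM (SD, n = 3) in control to 28.9 ± 8.15. PCSK6 stood at 1.41 ± 0.119 CPM in control and 13.4 ± 1.46 after vemurafenib, a rise of 3.24 (SE 0.20). PCSK7 rose by 1.03 (SE 0.11), and FURIN, the convertase of the constitutive pathway, fell by 0.81 (SE 0.10). After cisplatin, where 22.7% of all tested genes rose and 23.5% fell, 2 of the 6 passed, both higher: PCSK7 (0.42) and MBTPS1 (0.41). MBTPS1 cleaves sterol-regulated transcription factors. PCSK5 (-0.33, adjusted p = 0.409) and PCSK6 (0.06, adjusted p = 0.869) did not pass the test after cisplatin. PCSK4 passed in no contrast. The difference between the drugs passed for PCSK5 (4.20, adjusted p = 2.1e-07) and PCSK6 (3.19, adjusted p = 2.14e-07). PCSK6 and MBTPS1 were named after their values were seen.

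Per length, FURIN and MBTPS1 carried most of the convertase RNA in control, FURIN with 46.7% to 47.9% of the summed TPM of the 8 convertases analysed. After cisplatin PCSK1 alone held 37.9% to 42%, against 5.61% to 7.17% in control and 0.644% to 2.33% after vemurafenib. PCSK2 held 6.75% to 8.55% after vemurafenib.

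**Figure D2:**
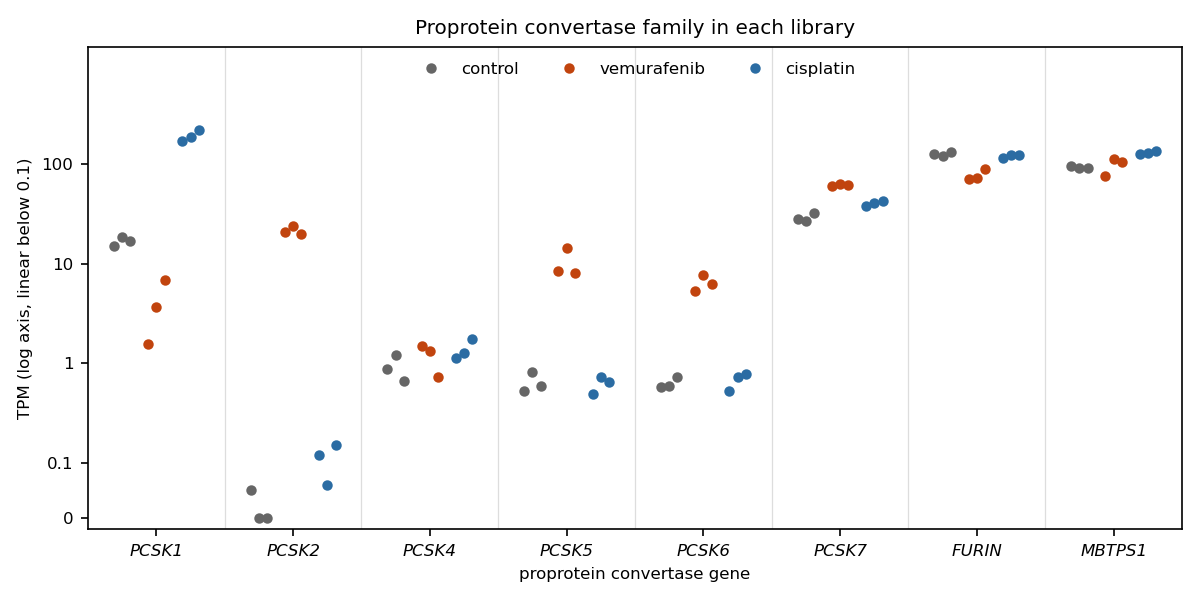
TPM of 8 proprotein convertase genes in each library, on a log axis that is linear below 0.1; each point is 1 library. PCSK2, PCSK5 and PCSK6 are higher in all 3 vemurafenib libraries than in any other library, PCSK1 is highest after cisplatin (171 to 221 TPM), and FURIN and MBTPS1 stay between 70.4 and 135 TPM in every library.

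CPE, which trims peptides after the convertases have cut, moved in opposite directions after the drugs. It read 38.8, 34.4 and 36.5 CPM in control, 9.95, 11.9 and 11.5 after vemurafenib and 124, 115 and 110 after cisplatin. Libraries of a group lay close together, and no groups overlapped. CPE fell by 1.72 after vemurafenib (SE 0.11, adjusted p = 5.18e-07) and rose by 1.67 after cisplatin (SE 0.11, adjusted p = 2.8e-07). Between the drugs the fold was 10.5.

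Of 10 other carboxypeptidases and peptide-finishing enzymes in the table, 8 were tested. In each drug group 4 of the 8 passed against control, all 4 higher, beside 22.0% of all tested genes higher after vemurafenib and 22.7% after cisplatin. CPM, a membrane carboxypeptidase whose symbol is the same as the unit, rose after both drugs, by 1.53 (SE 0.17) after vemurafenib and 2.59 (SE 0.16) after cisplatin. CPXM2, a carboxypeptidase-like protein, rose from a mean normalised level of 0.0653 in control to 3.64 after vemurafenib (log2 change 5.63, SE 0.53). CPXM2 passed the filter in every library of the vemurafenib group only, and with no filter the change was 5.64 (adjusted p = 1.86e-06). Its rise after cisplatin (2.57, adjusted p = 0.0145) was lost without cisplatin replicate 3 (1.94, adjusted p = 0.0737) and on log2(TPM + 1) with limma (0.33, adjusted p = 0.142).

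SCG5 encodes 7B2, the chaperone of PC2, and was low in every library. It read 1.04, 1.39 and 2.05 CPM in control, 0.26, 0.37 and 0.31 after vemurafenib and 1.04, 0.68 and 0.40 after cisplatin. The vemurafenib libraries lay below all others, and the highest cisplatin library and the lowest control library both read 1.04. SCG5 passed the low-count filter in every library of the control group only, where it was highest. It fell after vemurafenib by 2.23 (SE 0.43, adjusted p = 0.00144), and with no filter on any gene the difference was -2.22 (adjusted p = 0.00141). After cisplatin the log2 difference was -1.08 (SE 0.38, adjusted p = 0.0366), and this call did not survive the fit with the replicate block (-1.07, adjusted p = 0.0529), DESeq2 (-1.08, adjusted p = 0.0762) or leaving out any of 4 libraries: control replicate 2 (adjusted p = 0.0673), control replicate 3 (0.164), cisplatin replicate 2 (0.101) and cisplatin replicate 3 (0.141).

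VGF encodes a granin-like precursor that is cut into several bioactive peptides, and it had the highest TPM of the members in control and after cisplatin. Its level was 406, 560 and 577 CPM in control, 44.4, 15.5 and 21.7 after vemurafenib and 914, 954 and 1080 after cisplatin. The groups did not overlap. The fold against control was 18.9 lower after vemurafenib (log2 -4.24) and 1.91 higher after cisplatin (log2 0.93). Without vemurafenib replicate 1, the highest library of its group, the former was -4.79. By mean TPM, VGF ranked 302 of 18430 genes in control, 154 after cisplatin and 6470 after vemurafenib.

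SCG2, the precursor of secretoneurin, differed from control in 1 of the 2 treatments. It read 39.1, 35.2 and 34.7 CPM in control, 15, 10.7 and 12.9 after vemurafenib and 36.2, 34.8 and 32.2 after cisplatin. SCG2 fell by 1.50 after vemurafenib (SE 0.13, adjusted p = 4.61e-06). Control and cisplatin libraries overlapped, and their difference of -0.08 (SE 0.13) did not pass the test (adjusted p = 0.652).

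CHGA, the granin most used as a neuroendocrine marker, had 1 count in control replicate 1 and none in the other 8 libraries. It did not pass the filter and was not tested. Its promoter entry holds the CRE printed above, as do the VGF entry and the first PCSK1 entry. In CHGA, annotated exon sequence of the gene itself (chr14:92923080-92923149) covers this CRE, and only 30 bases are therefore shown.

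Only 2 other granin-family genes were tested. Both rose after cisplatin, where 22.7% of all tested genes rose, and 1 fell after vemurafenib, where 22.9% fell. CHGB, a close relative of CHGA, fell by 1.30 after vemurafenib (SE 0.23, adjusted p = 0.00085) and rose by 1.63 after cisplatin (SE 0.19, adjusted p = 4.4e-05), with means of 2.74 CPM in control, 1.11 after vemurafenib and 8.53 after cisplatin. PCSK1N encodes proSAAS, an inhibitor of PC1/3. It rose after cisplatin by 1.43 (SE 0.22, adjusted p = 0.000304), from 3.52 to 4.24 CPM in control to 9.69 to 11.1. After vemurafenib it read 4.42, 2.56 and 2.39 CPM, a difference of -0.29 (adjusted p = 0.353) that became -0.62 (adjusted p = 0.0173) without replicate 1. SCG3, which sorts granins into granules, had 18 counts in all and was not tested.

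PDYN encodes prodynorphin, the precursor of the dynorphin opioid peptides. It had 2, 1 and 1 counts in control, 0, 0 and 1 after vemurafenib and 192, 165 and 119 after cisplatin, which is 13.3, 11.2 and 7.92 CPM. All 3 cisplatin libraries stood far above the other 6. The log2 difference between cisplatin and control was 6.83, and the ratio of cisplatin to vemurafenib was 514 with a counting interval of 91.9 to 20358. Control and vemurafenib, with 4 counts against 1, had a ratio of 4.15 (0.411 to 205), and the depth did not show a difference. PDYN passed the filter in every library of the cisplatin group only.

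Enough counts for a test were present for 10 of 35 other peptide and hormone precursors. After vemurafenib 2 rose and 6 fell (22.0% and 22.9% of all tested genes), and after cisplatin 4 rose and 4 fell (22.7% and 23.5%). TAC1, the precursor of substance P, rose after both, from 0.326, 0.332 and 0.834 CPM in control to 122, 99.7 and 70 after vemurafenib and 15, 18.1 and 19 after cisplatin. Its log2 changes were 7.58 (SE 0.32, adjusted p = 4.48e-08) and 5.10 (SE 0.33, adjusted p = 3.09e-07; 5.69 without control replicate 3), and the difference between the drugs was 2.48 (adjusted p = 2.74e-06). NTS, the neurotensin precursor, had 37, 15 and 38 counts in control, 2, 2 and 13 after vemurafenib and 90, 81 and 117 after cisplatin. It fell by 2.43 after vemurafenib (SE 0.56; -3.87 without vemurafenib replicate 3) and rose by 1.73 after cisplatin (SE 0.40). ADM2, an adrenomedullin-related peptide, fell by 2.34 after vemurafenib (SE 0.48; -2.98 without vemurafenib replicate 3) and fell by 2.81 after cisplatin (SE 0.51). PENK, the enkephalin precursor, had 9 counts in all.

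SYT12 belongs to the synaptotagmins, a family of membrane proteins of vesicle release, and is a member that lacks the calcium-binding residues of its relatives. It read 0.391, 0.66 and 1.16 CPM in control, 0, 0 and 0.061 after vemurafenib and 7.27, 6.92 and 5.26 after cisplatin. The groups did not overlap. In summed counts these were 34, 1 and 286. The log2 difference of cisplatin from control was 3.12, and the ratio of control to vemurafenib was 35.3 with a counting interval of 5.92 to 1435. SYT12 passed the filter in every library of the cisplatin group only.

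Of 16 other synaptotagmins 8 were tested, with 3 higher and 1 lower after vemurafenib (22.0% and 22.9% of all tested genes) and 4 higher and 1 lower after cisplatin (22.7% and 23.5%). SYT1, the calcium sensor of fast release, rose after cisplatin by 0.84 (SE 0.19, adjusted p = 0.00313), from a mean of 10.1 CPM to 18.1. After vemurafenib SYT1 read 8.45 CPM (-0.26, adjusted p = 0.303). SYT17 fell by 3.55 after vemurafenib (SE 0.49, adjusted p = 0.000126) and by 1.45 after cisplatin (SE 0.39, adjusted p = 0.0097), the latter not past the threshold without control replicate 2 (adjusted p = 0.0527). SYT14 passed against control after both drugs (0.91 and 0.73), but 3 of 18 alternatives ended the first call and 5 of 18 the second.

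**Figure D3:**
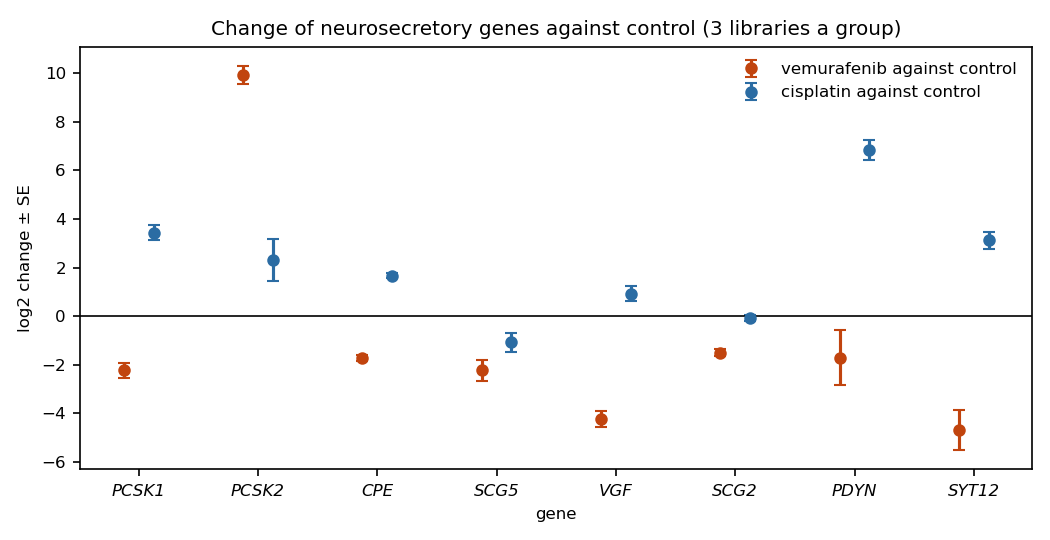
Log2 change against control for the 8 members that passed the count filter, 3 libraries a group. Bars are the SE, the size of the change divided by the square root of its F statistic. For PCSK2, VGF, PDYN and SYT12 the bars are not to be read as a test. PCSK1, CPE, VGF, PDYN and SYT12 lie below 0 after vemurafenib and above 0 after cisplatin, PCSK2 is highest after vemurafenib (9.92), and SCG5 lies below 0 after both; both values of PCSK2 and PDYN, and that of SYT12 after vemurafenib, rest on a group with 1 to 4 counts.

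Set side by side per length, the order of the members differed among the groups. In control VGF led at 401 ± 80.1 TPM (SD, n = 3), followed by SCG2 (28 ± 1.4) and CPE (27.4 ± 1.58), which did not differ beyond their spread, then PCSK1 (16.8 ± 1.82), SCG5 (2.42 ± 0.887) and SYT12 (0.413 ± 0.229). After vemurafenib PCSK2 (21.6 ± 1.99) and VGF (21.6 ± 9.08) were level, then SCG2 (10.5 ± 0.878) and CPE (9 ± 1.89), whose ranges overlapped, PCSK1 (4.04 ± 2.7) and SCG5 (0.547 ± 0.16). After cisplatin the order was VGF (809 ± 95.3), PCSK1 (193 ± 25.4), CPE (92.2 ± 3.03), SCG2 (28.1 ± 0.843), PDYN (8.38 ± 1.81), SYT12 (3.8 ± 0.562) and SCG5 (1.2 ± 0.506). PCSK1 ranked 746 of 18430 genes after cisplatin, 7245 in control and 10898 after vemurafenib.

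Over the lists of other genes of the pathway, 80 of 132 genes without the members were tested. After vemurafenib 19 rose and 31 fell, with a median log2 change of -0.13, where 22.0% of all 13989 tested genes rose and 22.9% fell, with a median of 0.01. After cisplatin 28 rose and 16 fell (median 0.29), where 22.7% of all tested genes rose and 23.5% fell (median 0.00). Between the drugs 12 were higher and 34 lower after vemurafenib (median -0.32), where 23.0% of all tested genes were higher and 20.8% lower (median 0.03). Of the members tested against control that passed the filter in all 3 groups, PCSK1, CPE and SCG2 were called lower after vemurafenib, and PCSK1 and CPE higher after cisplatin. The members were picked with these results known, and these calls describe them only. With libraries scaled by total counts only, the median of all genes for vemurafenib against control moved to 0.11 and the share of higher calls from 49.1% to 60.0%, and on log2(TPM + 1) it was 59.3%.

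The granule release machinery comprised genes such as SNARE proteins, RAB3 and RAB27 GTPases and their effectors. Of its 32 tested genes, 5 were higher and 15 lower after vemurafenib (median -0.49), where 22.0% of all tested genes rose and 22.9% fell. After cisplatin 9 were higher and 7 lower (median 0.17), where 22.7% of all tested genes rose and 23.5% fell. PTPRN, a transmembrane protein of the dense-core granule, followed the order seen for CPE: 21.4 ± 2.34 CPM in control, 2.74 ± 0.452 after vemurafenib and 51.1 ± 1.99 after cisplatin. It fell by 2.96 (SE 0.15, adjusted p = 1.12e-07) and rose by 1.26 (SE 0.13, adjusted p = 1.19e-05). RIMS2, a scaffold of release sites, fell by 3.85 after vemurafenib (SE 0.44; -4.50 without vemurafenib replicate 2) and gave -0.61 after cisplatin (adjusted p = 0.134). SNAP25, a SNARE of regulated release, fell by 2.39 after vemurafenib (SE 0.30) and fell by 2.67 after cisplatin (SE 0.31). SV2C, a vesicle glycoprotein, rose by 2.85 after vemurafenib (SE 0.43, adjusted p = 0.000268; 3.50 without control replicate 3). SV2C passed the filter in every library of the vemurafenib group only, and with no filter the change was 2.85 (adjusted p = 0.000161).

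**Figure D4:**
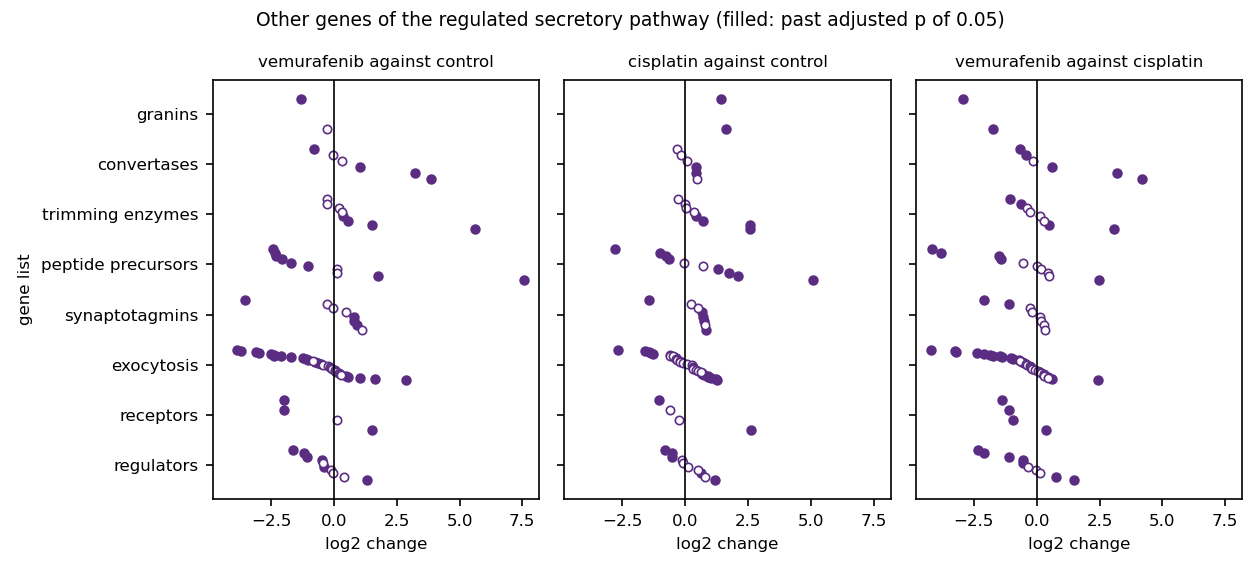
Log2 change of each tested gene of 8 lists of the regulated secretory pathway, without the 9 members, in the 3 contrasts; filled points passed an adjusted p of 0.05 and open points did not. Release genes (exocytosis) lie mostly left of 0 in vemurafenib against control, with 15 lower and 5 higher of 32. Of all tested genes, 22.9% were lower and 22.0% higher in that contrast. Both tested granin genes lie left of 0 between the drugs, where 20.8% of all tested genes were called lower after vemurafenib.

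Receptors of the opioid family and of VGF-derived peptides were tested where counts allowed, 4 of 6 genes. OPRK1, the receptor of dynorphins, had 2 counts in all libraries. C3AR1, which binds a VGF-derived peptide as well as complement C3a, rose after vemurafenib by 1.53 (SE 0.30, adjusted p = 0.0016) and after cisplatin by 2.63 (SE 0.29, adjusted p = 2.55e-05), from a mean of 1.39 CPM to 4.04 and 8.67. OPRL1, the nociceptin receptor, fell by 1.99 after vemurafenib (SE 0.28) and fell by 1.05 after cisplatin (SE 0.26). OPRD1, the delta opioid receptor, fell after vemurafenib by 1.97 (SE 0.33) and gave -0.60 after cisplatin (adjusted p = 0.117). C1QBP, which also binds a VGF peptide, passed between the drugs (0.38, adjusted p = 0.0216), a call that 4 of 18 alternatives ended.

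Of 15 regulators of neuroendocrine genes 10 were tested, with 1 higher and 5 lower after vemurafenib (22.0% and 22.9% of all tested genes) and 2 higher and 3 lower after cisplatin (22.7% and 23.5%). REST, the repressor that keeps neuronal and neurosecretory genes silent in other cells, read 60, 63 and 67.8 CPM in control, 30.1, 56.4 and 55.3 after vemurafenib and 68.5, 66.8 and 71.5 after cisplatin. Vemurafenib replicate 1 was the lowest, and replicates 2 and 3 lay closer to control. The difference of REST between vemurafenib and control was -0.43 (SE 0.19, adjusted p = 0.0896). It passed in 3 of 18 alternatives: with the replicate block (-0.46, adjusted p = 0.0478) or without vemurafenib replicate 2 (-0.58, adjusted p = 0.0416) or 3 (-0.57, adjusted p = 0.0416). Over all 18 it ran from -0.58 to -0.19, with adjusted p up to 0.288. Leaving out replicate 2 or 3 gives replicate 1 more weight. Between the drugs REST passed (-0.54, adjusted p = 0.0374), and 9 of 18 alternatives ended that call. POU3F2, a neural POU factor found in melanoma, rose after vemurafenib by 1.34 (SE 0.17, adjusted p = 7.66e-05) and gave -0.13 after cisplatin (adjusted p = 0.568). PROX1, a homeobox factor, fell by 1.17 after vemurafenib (SE 0.23, adjusted p = 0.00149) and rose by 1.18 after cisplatin (SE 0.21, adjusted p = 0.000808). ISL1, a LIM-homeobox factor, fell after cisplatin by 0.82 (SE 0.22, adjusted p = 0.00927). INSM1, a zinc-finger factor of neuroendocrine cells, had 3 counts in all.

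The summed level of 12 markers of neuroendocrine cells was 598 to 630 CPM in control, 271 to 353 after vemurafenib and 299 to 328 after cisplatin, most of it from ENO2 and TUBB3, which other cells also express. The 5 tested markers are given as mean CPM in the same order. ENO2 read 283, 48.8 and 45.9, TUBB3 311, 244 and 253, and NCAM1 12.4, 2.58 and 1.02. CHGB read 2.74, 1.11 and 8.53, while SYP was higher after both drugs, at 1.31, 4.09 and 2.64. UCHL1, NEUROD1 and ELAVL4 were at 0 in all control libraries, CHGA, INSM1, NEUROD1, ELAVL4 and STMN2 in all vemurafenib libraries, and CHGA in all cisplatin libraries. The 10 melanocyte markers summed to 2460 to 2964 CPM in control, 1900 to 2262 after vemurafenib and 2340 to 3349 after cisplatin. The lineage factor SOX10 was high in all groups (means of 1060, 1093 and 836 CPM) and MLANA and TYR were under 1 CPM in every library, while DCT, an enzyme of pigment synthesis, read 0.0863 CPM in control and 275 after vemurafenib. CSPG4, which made up most of the control sum with SOX10, read 1501 CPM in control, 215 after vemurafenib and 1241 after cisplatin. S100B read 15.1, 268 and 136 CPM in the same order, and S100A1 read 178, 145 and 674. MITF read 35.8, 82 and 37.2 CPM, and PMEL read 1.72, 1.68 and 4.32. Summed markers of fibroblasts (8 genes, with THY1 at 0 in control and vemurafenib) were 22.2 to 27.3 CPM in control, 31.7 to 42.8 after vemurafenib and 17.5 to 32 after cisplatin, and those of keratinocytes (5) were 18.8 to 22.9, 16.1 to 25.8 and 18.4 to 23. Blood markers (6) summed to 86.9 to 124, 106 to 122 and 239 to 288 CPM, most of it from CD68 (means of 103, 107 and 226 CPM) and LYZ (7.89, 5.75 and 40.6), both of which rose after cisplatin (adjusted p = 0.0001 and 2.67e-05), with PTPRC at 0 in control, CD3E at 0 in control and HBB at 0 in control and cisplatin. The part of these markers in the results was not tested.

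Library totals ran from 14481020 to 16038475 estimated counts, and vemurafenib replicate 1 stood apart from replicates 2 and 3 on the third principal component (39.1 against -22.3 and -22.7), which held 5.8% of the variance. Without it, PCSK1 after vemurafenib was -1.88 (adjusted p = 1.59e-05), and the pathway lists gave 20 higher and 30 lower of 82 tested genes against control. Over all tested genes, that fit called 7672 against control, 48.4% of them higher. With all libraries 6282 were called, 49.1% of them higher.

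Genes with the profile most like a member's, by Pearson's r of log2 CPM over the 9 libraries, are given as descriptions, since 9 libraries in 3 groups make many genes alike. For PCSK1 these were NOMO1 (r = 0.998), a gene with near-identical copies whose counts are uncertain, and SPRED3 (0.995), an inhibitor of RAS-ERK signalling. For PCSK2 they were NCK2 (0.998) and ENPP2 (0.997), the latter encoding autotaxin. VGF was most like GAS6 (0.990), a ligand of TAM receptor kinases, and PCGF2 (0.987). PDYN was most like VWA5A and TMEM132B (both 0.994), and SCG2 was most like VSIG10L and SPRR2D (both 0.993). CPE followed PHLDB1 (0.998) and the death receptor gene FAS (0.995). SYT12 followed PTHLH (0.993), itself a hormone precursor cut by convertases, and CTSL (0.988). SCG5 had the lowest values, with GPR146 (0.959) and CLEC2B (0.953).

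In the GENCODE v29 annotation PCSK1, PDYN and SCG5 each overlap an antisense gene. On the opposite strand, PCSK2 and CPE each overlap a processed pseudogene, and SYT12 a microRNA gene. None of these partners has a row in the table. No source used here states that the libraries kept strand, so reads of these members and their opposite-strand partners cannot be told apart.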

How the data were processed

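RNA-seq values of 9 A375 libraries were analysed, 3 per group. Per the submitters' processing notes, the tools included the aligner HISAT2 2.0.4 and the build was hg38. How reads were assigned to genes is not given in the sources used here. For each gene and library, the authors deposited estimated counts, TPM and FPKM, as named per the file headers. The estimated counts, of which 13.6% to 14.1% of a library's values were not whole (tolerance 1e-06), were rounded. FPKM was not used. Genes were kept by filterByExpr (at least 10 counts scaled to the median library, 0.646 CPM, in 3 libraries), which left 13989. All libraries entered 1 fit of group means with TMM scaling in edgeR 4.0.16 (R 4.3.3), tested two-sided by the quasi-likelihood F test with Benjamini-Hochberg adjustment at 0.05, and the method was tested on simulated data. The biological coefficient of variation was 0.139, with 6 residual degrees of freedom. SE is the size of the log2 change divided by the square root of its F statistic, so it restates the test. CPM are TMM-normalised, and TPM are the authors'. Ratios of members with 1 to 3 summed counts in the lower group carry exact binomial 95% intervals. These cover counting error only, since PCR reads are not independent molecules.

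The members and lists were chosen with earlier results of these data known. Text names all members, a panel of related genes, for each list and contrast the called genes with the largest rise and fall that reached 1 CPM, and the 2 genes most like each member. Gene symbols and coordinates come from RefSeq, in which 18153 identifiers matched. Replicate numbers are shared by the groups. Same-numbered vemurafenib and control libraries deviated together (r = 0.176, 0.137 and 0.185), but cisplatin and control (0.21, 0.081 and 0.125) and vemurafenib and cisplatin (0.166, 0.013 and 0.102) did not all pass 0.1. Alternatives were other scalings, DESeq2 1.42.0, other filters, limma 3.58.1 on log2 TPM, only the groups compared, a replicate block and leaving out each library. No 2 libraries agreed within sampling noise. 1 other gene of the convertase family is not reported here.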

Additional observations from a re-analysis of the deposited data

How the results depend on the processing

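Of the members' values against control that were tested, SCG5 after cisplatin lost its call with DESeq2 (-1.08) and with the replicate block (-1.07), and leaving out 1 library gave -1.46 to -0.78; the cause was not tested. The paired fit with the replicate block otherwise changed only the call of REST after vemurafenib among the members and the list genes whose test is given (-0.46). The 3 counts of called genes over all genes and the 3 over the pathway lists stayed within 1.5 times under their 108 alternatives. SCG2 after cisplatin, not past the threshold, turned to 0.01 on log2(TPM + 1) and 0.01 on log2(TPM + 0.1). Differences not past the threshold that changed sign near 0, among the list genes named with a test, were PCSK6 after cisplatin (-0.02 to 0.19 over left-out libraries), MBTPS1 after vemurafenib (0.07 with total counts only, 0.06 and 0.06 on the TPM scales, -0.10 to 0.04 over left-out libraries), ADM2 between the drugs (-0.17 to 0.86 over left-out libraries), SYT14 between the drugs (-0.03 and -0.06 on the 2 TPM scales, -0.18 to 0.43 over left-out libraries), SV2C after cisplatin (-0.12 to 1.09 over left-out libraries) and ISL1 after vemurafenib (0.05 with total counts only, 0.05 and 0.06 on the TPM scales, -0.15 to 0.04 over left-out libraries). Fitted values of PCSK2, PDYN and SYT12 rest on few counts in their low groups and move with the pseudocount: PCSK2 after vemurafenib ran from 4.47 to 12.58, PDYN after cisplatin from 3.12 to 7.20 and SYT12 after vemurafenib from -6.51 to -0.47. With 1 count in 9 libraries, a difference in CHGA was not detectable at this depth.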
